A study of Mus musculus with 6 samples.

Results

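Centrosomal genes were described in RNA recovered with PNMA4 from dense material of mouse testis. The set holds every gene symbol made of Cep and a number, with or without the endings l or nl, together with Pcnt, Cntrl, Cntrob, Ninl, Nin, Pcm1 and Rttn. It has 43 genes of 57010 gene IDs in the table. The rule uses names and no measured value, but it was set with earlier results of these data known. All 43 had counts in each of the 6 libraries and all 43 passed the filter on low counts.

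PNMA4, the protein of the gene Moap1, derives from the capsid gene of a retrotransposon. Testis lysate was spun onto sucrose layers of 25% and 70%, the band above the denser layer was separated on iodixanol, and an antibody against PNMA4 was applied to fractions 8 and 9. The wild-type group has 3 libraries of wild type testes, for which the protocol names the strain C57BL/6J. The group lacking PNMA4 has 3 libraries that went through the same antibody step without its target: 2 of Pnma4 KO mice, called Pnma4 KO 1 and 2 here, and 1 of mice with both genes deleted (Pnma1, Pnma4 DKO), which the labels count as replicate 3. Each lysate pooled 8 frozen testes of mice aged 3 months. The spread among libraries is thus one among pooled lysates, including differences in handling and library preparation. Input RNA of these lysates was not analysed here, and every level below is that of the recovered RNA, with no ratio to the RNA content of testis.

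A centrosome is a pair of centrioles inside a cloud of scaffold proteins, the pericentriolar material, from which microtubules grow. The CEP proteins were named for being found at the centrosome and share no single sequence family. Some build the new centriole, some form the appendages by which the older centriole docks to the membrane, and others sit in centriolar satellites, mobile granules that carry centrosome proteins. In spermatids the older centriole becomes the basal body of the sperm tail, and in mouse the centrioles themselves degenerate as sperm mature.

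Library totals ran from 3743015 to 6118126 counts in wild type and from 3138657 to 6367930 without PNMA4. The labels held for the deleted genes, with 7, 26 and 27 counts of Moap1 in wild type and 0 in each library lacking PNMA4, and with 0 counts of Pnma1 in the DKO library alone. The DKO library stood apart, with 57.5% of its counts in the ribosomal RNA gene Rn18s-rs5 against 27.3% to 36.1% in the other 5. Its scaling factor (TMM) was 0.629, against 1.01 to 1.29 elsewhere. Germ cell markers were present in all libraries. The 6 markers of elongating spermatids summed to 1054 to 1281 CPM (counts scaled to a common TMM library size) in wild type and 1208 to 1452 CPM without PNMA4, and the 6 of spermatocytes to 576 to 719 and 508 to 619 CPM. The 6 Leydig cell markers summed to 152 to 177 CPM in wild type, against 148 to 388 CPM without PNMA4, with the highest value in the DKO library, and the 7 Sertoli cell markers to 120 to 178 and 124 to 261 CPM. The 5 markers fixed for ciliated cells of the ducts summed to 94.5 to 139 CPM in wild type, against 73.5 to 101 CPM without PNMA4, nearly all of it Foxj1 and Muc16, while the multiciliation regulators Mcidas and Gmnc had 0 or 1 count in every library. The third such regulator, Ccno, was seen in all 6, with 5 to 18 counts a library, and did not pass the filter on low counts. It stood at 2.61, 2.29 and 1.22 CPM in wild type, against 1.58, 0.709 and 1.66 CPM without PNMA4, so the groups overlapped. The part of these other cells in the values below was not tested.

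None of the 43 genes passed the test between wild type and libraries lacking PNMA4, and for nearly all of them a 2-fold difference lay outside the 95% interval. In edgeR's quasi-likelihood test with Benjamini-Hochberg adjustment over all 13413 genes tested, 0 of 43 were called at an adjusted p under 0.05, where 0.0596% of all genes were called (0.0224% higher and 0.0373% lower in wild type). The lowest adjusted p among the 43 was 1.00. At an unadjusted p under 0.05 there were also 0 of 43, against 2.92% of all genes. DESeq2 and limma-voom called 0 as well. In limma-voom Pcnt alone of the 43 had an unadjusted p under 0.05 (0.0348), against 714 of all 13413 genes. The interval of the difference lay within 2-fold in both directions for 42 of 43 genes, or 97.7%, against 71.1% of all genes tested. Within 1.5-fold lay 18 of 43. The 43 genes and all genes were not matched for read depth, on which the width of an interval depends. Under a stricter filter on low counts 41 of the 43 remained, against 7299 of all genes. These intervals hold per gene and not jointly, and they are relative to the bulk of genes, which TMM scaling sets near 0. In bulk libraries, fewer cells of a type and less RNA per cell cannot be told apart.

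**Figure D1:**
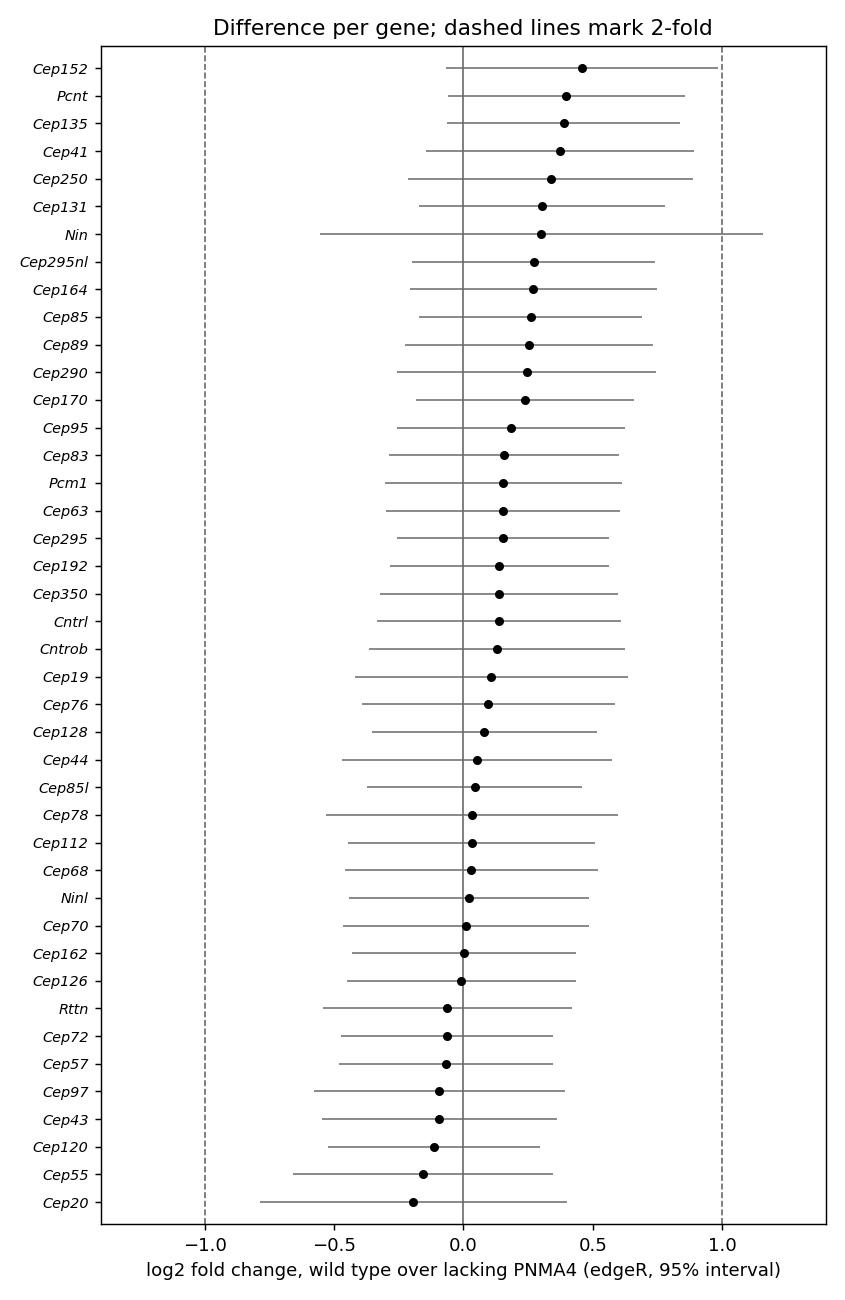
Log2 fold change (wild type over lacking PNMA4) of 42 of the 43 genes with its 95% interval from edgeR, from 3 libraries per group. All points lie between −0.19 and 0.46, and the interval of Nin is the only one that crosses a dashed 2-fold line.

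The genes leaned to slightly higher values in wild type, but lay close to all genes when either of 2 libraries was left out. Of 43, 34 had positive log2 fold changes (79.1%, against 51.9% of all genes tested), with a median of 0.13 against 0.01 for all genes. Without wild-type replicate 1 the median was 0.04 against 0.003 for all genes, with 23 of 43 positive (53.5%, against 50.6% of all genes). Without Pnma4 KO 1 it was 0.02 against 0.004, with 25 positive (58.1%, against 50.5%). Wild-type replicate 1 held the highest value of 17 of the 43 genes and Pnma4 KO 1 the lowest of 25. Without the DKO library the median was 0.13, and 42 intervals again lay within 2-fold. With no scaling factors, which scales by library totals alone, the median of all genes moved to 0.31 and that of the 43 to 0.42, or 0.11 above all genes against 0.12 in the main test. In that setting 6 of 43 intervals lay within 2-fold.

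Together the 43 genes took 0.564%, 0.595% and 0.544% of counts in wild-type replicates 1 to 3. In Pnma4 KO 1, Pnma4 KO 2 and DKO they took 0.407%, 0.584% and 0.280%. On the scaled level their sum was 5061 ± 442 CPM in wild type, against 4585 ± 635 CPM without PNMA4 (SD, n = 3 each). The groups overlapped on this scale, since Pnma4 KO 2 (5275 CPM) lay above wild-type replicates 2 and 3 (4626 and 5047 CPM). Cep350 alone supplied 13.8% to 15.7% of these counts in wild type and 14.2% to 15.9% without PNMA4. No transcript lengths were used here, and long transcripts collect more reads, so the values that follow are compared between libraries and not between genes.

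**Figure D2:**
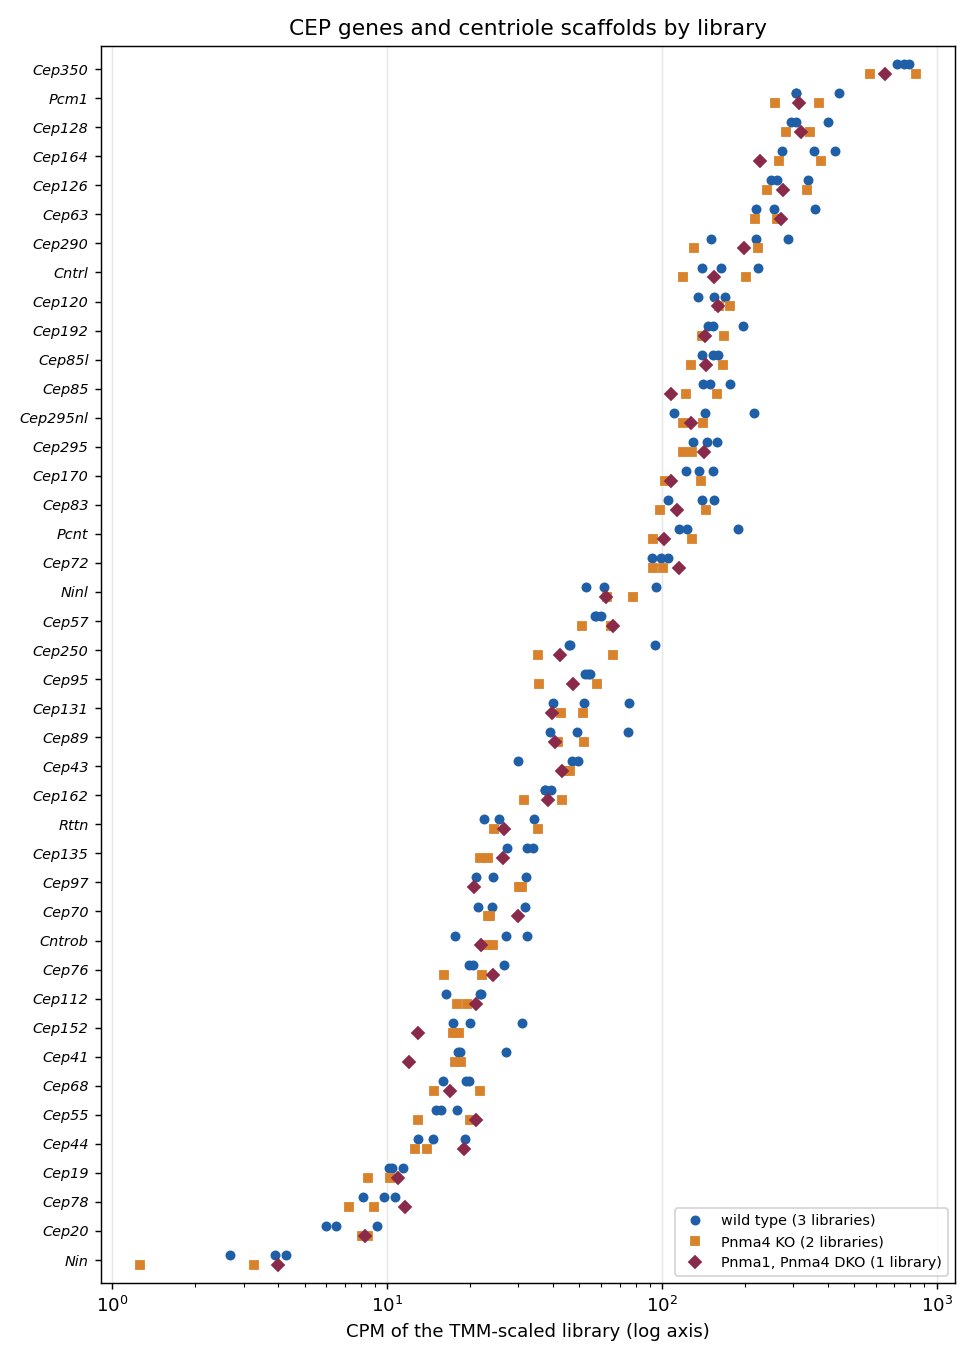
CPM (log axis) of 42 of the 43 genes in each library, ordered by mean CPM. Circles are wild type, squares Pnma4 KO and the diamond the DKO library. Among the genes drawn, Cep135 alone has circles that do not overlap with the other symbols.

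Among the 13 genes of centriole assembly and duplication, 9 log2 fold changes were positive and 4 negative (median 0.13), and 0 were called. Summed, they came to 1126 ± 74.7 CPM in wild type, against 1042 ± 57.9 CPM without PNMA4 (SD, n = 3 each). Cep63 and Cep152 form the ring around the older centriole on which the kinase PLK4 starts a new one. Cep63 (chromosome 9, 102586578 to 102626564 in GRCm38.p6) stood at 360, 220 and 256 CPM in wild type, against 218, 262 and 270 CPM without PNMA4. Wild-type replicate 1 was the highest of the 6, and the other two lay below Pnma4 KO 2 and DKO. Its log2 fold change was 0.15 (95% interval −0.30 to 0.61).

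Its partner Cep152 (chromosome 2, 125549864 to 125625174) had the lowest p of the 43 genes, and did not pass. It stood at 30.8, 17.3 and 20.0 CPM in wild type, against 18.3, 17.3 and 13.0 CPM without PNMA4. Replicate 1 of wild type was the high library and DKO the low one, and the groups overlapped. The log2 fold change was 0.46 (95% interval −0.07 to 0.98, edgeR unadjusted p = 0.0854, adjusted p = 1.00), and 0.19 without wild-type replicate 1.

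Cep135 (chromosome 5, 76588653 to 76646466), a component of the cartwheel on which the centriole's microtubules are laid out, was the one member whose groups did not overlap. It stood at 33.9, 27.2 and 32.3 CPM in wild type, against 21.7, 23.3 and 26.3 CPM without PNMA4, from 69 to 214 counts a library. Groups that do not overlap with wild type higher were found in 3.25% of all genes tested, and 1 of 43 is 2.33%. The log2 fold change was 0.39 (95% interval −0.06 to 0.84, edgeR unadjusted p = 0.0880, adjusted p = 1.00), and it ran from 0.32 to 0.49 with 1 library left out.

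Regulators of centriole length, maturation and number overlapped between groups. Cep120, which promotes elongation, stood at 154, 169 and 135 CPM in wild type, against 176, 160 and 160 CPM without PNMA4, with a log2 fold change of −0.11 (95% interval −0.52 to 0.30). Cep295, needed for a new centriole to mature into a centrosome, stood at 129, 158 and 146 CPM in wild type against 119, 129 and 142 CPM (log2 fold change 0.15, interval −0.26 to 0.56). Both had all libraries within 1.25-fold of each other in wild type. Cep192, which recruits PLK4 and pericentriolar material, had 0.14 (−0.28 to 0.56). Cep97, which caps centrioles together with CP110, had −0.09 (−0.58 to 0.39), at 24.3, 21.0 and 32.0 CPM in wild type, against 30.2, 30.9 and 20.6 CPM without PNMA4. The DKO library was the lowest for Cep97 and, at the other end, close to the highest for Cep44. Cep44, a protein of the centriole's interior, stood at 14.6, 13.0 and 19.2 CPM against 12.6, 13.9 and 18.9 CPM, so the libraries of each group covered nearly the same range. The other 5 genes of this role (Cep57, Cep85, Cep76, Cntrob and Rttn) had log2 fold changes from −0.07 to 0.26.

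The pericentriolar scaffold was represented by Pcnt and the linker between the centrioles by Cep250 and Cep68. Pcnt (chromosome 10, 76351254 to 76442912) encodes pericentrin, a large scaffold for the gamma-tubulin complexes that start microtubules. It stood at 189, 123 and 115 CPM in wild type, against 92.6, 128 and 102 CPM without PNMA4. Wild-type replicate 1 was the highest library, and Pnma4 KO 2 lay above wild-type replicates 2 and 3. The log2 fold change was 0.40 (95% interval −0.06 to 0.86, edgeR unadjusted p = 0.0859, adjusted p = 1.00), and 0.14 without wild-type replicate 1.

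Cep250, or C-NAP1, anchors the linker fibres at the base of each centriole. It stood at 93.9, 45.7 and 46.2 CPM in wild type, against 35.3, 66.1 and 42.5 CPM, the widest spread within wild type of any of the 43 genes (2.05-fold from lowest to highest). Its log2 fold change was 0.34 (95% interval −0.21 to 0.89). Cep68, a second linker protein, stood at 15.9, 19.8 and 19.4 CPM in wild type, against 14.8, 21.7 and 17.0 CPM without PNMA4, a log2 fold change of 0.03 (−0.46 to 0.52).

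Genes of the appendages and of anchoring at the older centriole made up 11 of the 43, of which 10 had positive log2 fold changes and 0 were called (median 0.14). Cep350, which anchors microtubules at the centrosome, held the most reads of the set, from 1815 to 5927 counts a library. It stood at 761, 717 and 792 CPM in wild type, against 572, 841 and 648 CPM without PNMA4. The control with the most, Pnma4 KO 2, lay above every wild-type library and the control with the least below every one. The log2 fold change was 0.14 (95% interval −0.32 to 0.60). Its partners Cep43 and Cep19 had −0.09 (−0.55 to 0.36) and 0.11 (−0.42 to 0.63), and Cep43 stood at 47.0, 29.8 and 49.2 CPM in wild type, against 44.4, 46.1 and 43.2 CPM.

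Cep164, Cep83 and Cep89 belong to the distal appendages, which dock the older centriole to the membrane. Cep164 stood at 424, 357 and 274 CPM in wild type, against 267, 379 and 227 CPM without PNMA4 (log2 fold change 0.27, 95% interval −0.21 to 0.75). Both groups spanned more than the difference between their means. Cep89 (0.25, interval −0.23 to 0.73) and Cep83 (0.16, −0.29 to 0.60) lay in the same range.

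Cep83 starts head to head with the long noncoding RNA gene Cep83os, and both RNAs were counted in all 6 libraries. The start of Cep83 in the start window used here lies 177 bases from the first base of Cep83os on chromosome 10, with Cep83 on the plus strand. The RefSeq span of Cep83 begins earlier, at 94688624, so all of this stretch but its first bases lies inside that span. The stretch is shown because it is the start region of 2 RNAs of these libraries. It is the plus strand of chr10:94688613-94688790 (RefSeq, GRCm38.p6). The capitals at its ends mark the first base of Cep83os and the start of Cep83 in its window.
Cep83os to Cep83: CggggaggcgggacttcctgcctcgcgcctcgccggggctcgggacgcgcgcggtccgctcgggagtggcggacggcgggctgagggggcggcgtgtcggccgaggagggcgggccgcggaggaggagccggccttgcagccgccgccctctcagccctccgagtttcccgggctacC
The stretch has 79.8% G and C and 28 CpG pairs. Cep83 stood at 154, 105 and 140 CPM in wild type, against 98.0, 145 and 114 CPM without PNMA4. Cep83os stood at 62.6, 62.0 and 133 CPM in wild type, against 81.0, 90.8 and 53.2 CPM without PNMA4. The 2 RNAs differed in which libraries were high, since wild-type replicate 1 was the highest for Cep83 and among the lowest 3 for Cep83os.

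The subdistal appendages anchor microtubules, and Cep128, Cep170, Nin, Ninl and Cntrl encode proteins found there. Cep128 stood at 401, 293 and 306 CPM in wild type, against 281, 344 and 319 CPM without PNMA4 (log2 fold change 0.08, 95% interval −0.35 to 0.52). Cntrl, centriolin, stood at 222, 140 and 164 CPM against 119, 202 and 155 CPM (0.14, −0.33 to 0.61). For both genes wild-type replicate 1 was the highest library, Pnma4 KO 1 the lowest and Pnma4 KO 2 the second highest. Cep170 had 0.24 (−0.18 to 0.66).

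Ninein (Nin) and its paralog Ninl differed in depth. Nin had 15, 21 and 28 counts in wild type, against 4, 23 and 12 without PNMA4, and was the single gene of the 43 whose interval reached beyond 2-fold (log2 fold change 0.30, 95% interval −0.56 to 1.16). At this depth a 2-fold higher level of Nin in wild type lay inside the interval. Ninl stood at 94.7, 52.7 and 61.6 CPM in wild type, against 63.0, 78.3 and 62.5 CPM without PNMA4, with a log2 fold change of 0.02 (−0.44 to 0.49).

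Satellite genes gave 3 positive and 2 negative differences out of 5, with 0 calls and a median log2 fold change of 0.15. Pcm1, the scaffold of the satellites, stood at 307, 306 and 441 CPM in wild type, against 258, 373 and 315 CPM without PNMA4. Its high library was wild-type replicate 3, and the log2 fold change was 0.15 (95% interval −0.30 to 0.61). Cep290, which works in satellites and at the transition zone of cilia, stood at 219, 150 and 287 CPM against 130, 223 and 199 CPM (0.24, −0.26 to 0.74). Cep126 stood at 261, 249 and 340 CPM against 241, 338 and 275 CPM, and its log2 fold change of −0.01 (−0.45 to 0.44) was among those nearest 0. Cep131, which has a known role in forming the mouse sperm flagellum, stood at 75.7, 51.9 and 40.1 CPM against 42.8, 51.5 and 39.9 CPM (0.30, −0.17 to 0.78). Wild-type replicate 1 was its highest library. Cep72, a satellite partner of Pcm1, had −0.06 (−0.47 to 0.35).

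Wild-type libraries ranked the genes in contrasting orders. Replicate 1 was above replicate 3 by 1.95-fold for Cep295nl, and likewise highest of the wild-type libraries for Pcnt, Cep250, Cep131, Cep89 and Cntrob. Replicate 3 was instead the highest for Pcm1, Cep290, Cep126 and Rttn. Differences between the group means were smaller than the pooled SD of log2 CPM within groups for 36 of the 43 genes.

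**Figure D3:**
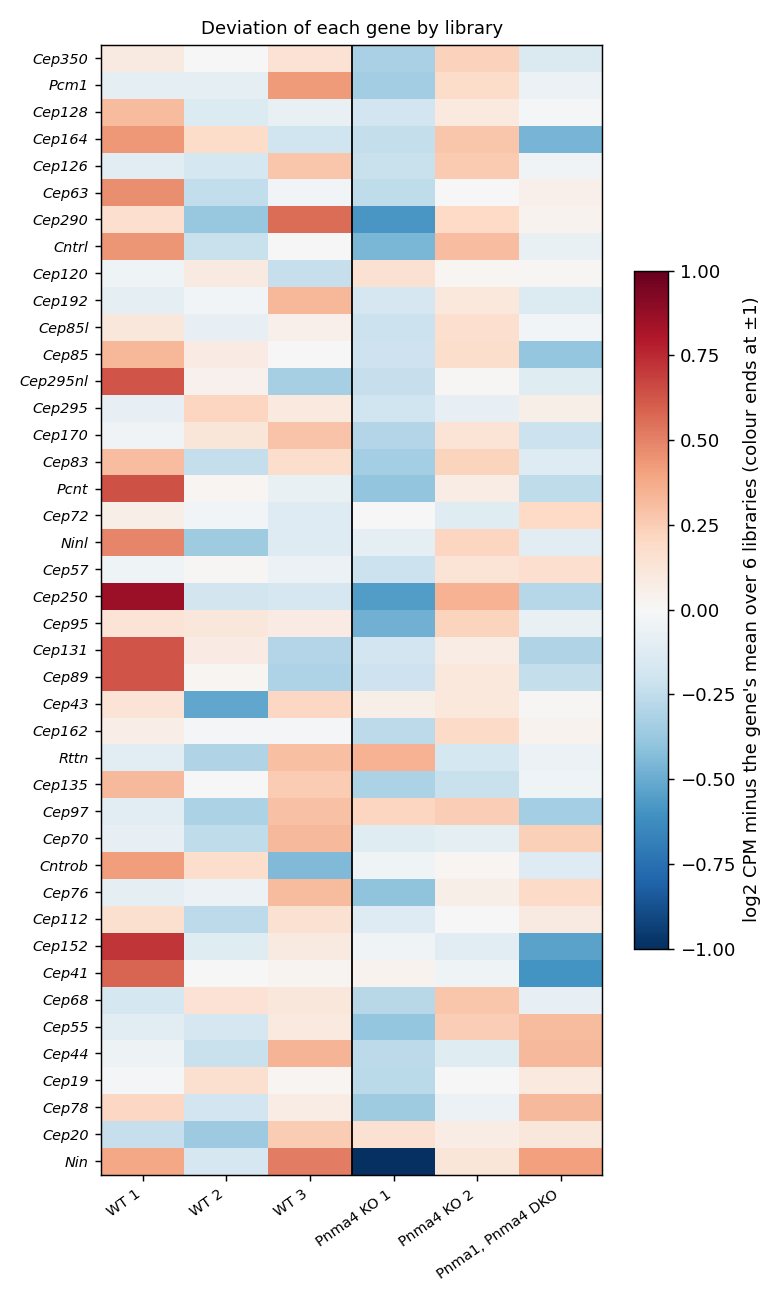
Log2 CPM of 42 of the 43 genes in each library minus the gene's mean over the 6 libraries, in the gene order of the plot of CPM by library. The Pnma4 KO 1 column is below the mean for most genes, and wild-type replicates 1 and 3 show opposite colours for genes such as Cep295nl, Cep131 and Cep89.

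Genes acting on cilia and tubulin, and the one abscission gene, had 0 calls in 6. Cep41, needed for polyglutamylation of ciliary tubulin, stood at 27.1, 18.0 and 18.4 CPM in wild type, against 18.6, 17.6 and 12.0 CPM without PNMA4 (log2 fold change 0.37, 95% interval −0.14 to 0.89, edgeR unadjusted p = 0.149). The DKO library was its lowest and wild-type replicate 1 its highest. Cep162, which marks the site of transition zone assembly, had 0.00 (−0.43 to 0.43). Cep78, linked to retinal cilia, had 0.03 (−0.53 to 0.60). Cep20, a small protein needed for ciliogenesis, stood at 6.52, 5.97 and 9.15 CPM in wild type, against 8.51, 8.09 and 8.31 CPM without PNMA4, the lowest log2 fold change of the set at −0.19 (−0.79 to 0.40). Cep55, which directs the final cut between dividing cells and is known for its presence at the bridges that join germ cells, stood at 15.7, 15.0 and 18.0 CPM in wild type, against 12.9, 20.0 and 20.9 CPM without PNMA4 (−0.16, −0.66 to 0.35).

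Of the paralog pairs, Cep85 stood at 177, 149 and 141 CPM in wild type, against 122, 159 and 108 CPM without PNMA4 (log2 fold change 0.26, 95% interval −0.17 to 0.69). Cep85l stood at 160, 139 and 153 CPM against 127, 166 and 145 CPM (0.04, −0.37 to 0.46). In both genes Pnma4 KO 2 was the highest of the controls and overlapped with wild type. Cep295nl stood at 215, 143 and 110 CPM against 119, 140 and 128 CPM (0.27, −0.20 to 0.74). It lies within the span of Timp2, which itself stood at 117, 136 and 92.2 CPM in wild type, against 114, 97.3 and 160 CPM without PNMA4. The strand setting of the counting is not given in the sources used here, so reads of overlapping genes cannot be assigned with certainty. RefSeq spans of 24 of the 43 genes overlap some other annotated gene, among them Cep95 with Ddx5 over 546 bases, Cep57 with Mtmr2 over 1114 bases and Cep112 with its antisense RNA Cep112os1. Log2 fold changes of Cep95, Cep112 and Cep70 were 0.18, 0.03 and 0.01.

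The single DKO library was set next against the 2 of Pnma4 KO. Loss of Pnma1 cannot be told apart here from whatever else is particular to that library, which had the highest share of counts in Rn18s-rs5 and the lowest scaling factor. The sum of its 6 Leydig cell markers was also high, at 388 CPM against 198 and 148 CPM in Pnma4 KO. Cyp17a1 stood at 127 CPM in DKO against 54.8 and 31.9 CPM in Pnma4 KO (log2 fold change 1.57, not called). Star differed less, at 46.2 CPM in DKO against 43.5 and 38.0 CPM (0.19). The rest of these markers had log2 fold changes from 0.85 (Hsd3b6) to 1.71 (Insl3). The part of Leydig cells in the values was not tested. With each of the 3 genotypes given its own term in edgeR, 0 of 43 genes were called for DKO over Pnma4 KO, where 0.0746% of all genes were, and 0 had an unadjusted p under 0.05, against 6.18% of all genes. The lone DKO library is assumed to vary like the others in this fit. The interval lay within 2-fold for 29 of 43 genes, so this comparison is less precise than the first. The lowest p belonged to Cep97, at 20.6 CPM in DKO against 30.2 and 30.9 CPM in Pnma4 KO (log2 fold change −0.57, 95% interval −1.34 to 0.20, edgeR unadjusted p = 0.139, adjusted p = 0.952). Cep41 (−0.59, interval −1.43 to 0.24), Cep164 (−0.51, −1.25 to 0.23) and Cep44 (0.51, −0.28 to 1.29) followed in the order of p. In all, 17 of 43 were positive, or 39.5%, against 49.6% of all genes. This comparison shares its knockout libraries with the first.

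Other genes of the centrosome and sperm neck, in lists of 98 genes, showed 0 calls among the 93 tested, with 62 positive log2 fold changes, a median of 0.08 and 83 intervals within 2-fold. Over all genes tested, 0.0596% were called, 51.9% were positive, the median was 0.01 and 71.1% of intervals lay within 2-fold. The lists and all genes were not matched for read depth. At an unadjusted p under 0.05 there were 2 of 93, against 2.92% of all genes. One was Haus5, a subunit of the augmin complex that branches microtubules (3.43 ± 2.23 CPM in wild type, against 1.49 ± 0.209 CPM without PNMA4, SD, n = 3 each, edgeR unadjusted p = 0.0407, adjusted p = 1.00). The other was Nphp4 of the transition zone (36.8 ± 11.6 against 25.7 ± 4.08 CPM, edgeR unadjusted p = 0.0482, adjusted p = 1.00). Medians by list were 0.05 for 25 centriole assembly genes, 0.09 for 26 genes of gamma-tubulin, augmin and the spindle pole, 0.18 for 10 appendage genes, 0.04 for 13 transition zone genes, 0.10 for 6 satellite genes and 0.12 for 13 genes of sperm head-tail coupling. The genes with most reads in 5 of the lists stayed within their spread. Ccp110, the partner of Cep97 in capping centrioles, stood at 315 ± 37.4 CPM in wild type, against 312 ± 59.2 CPM without PNMA4, and Cdk5rap2, a scaffold that binds gamma-tubulin complexes, at 347 ± 77.6 against 307 ± 43.6 CPM. Odf2, which builds appendages and the outer dense fibres of the sperm tail, stood at 1077 ± 287 against 953 ± 55.3 CPM. Ssx2ip of the satellites stood at 215 ± 34.7 against 212 ± 26.3 CPM, and Rimbp3, a manchette protein of spermatids, at 627 ± 183 against 579 ± 70.9 CPM. The genes of lowest p in the 4 lists that hold neither Haus5 nor Nphp4, given as log2 fold changes, were Kif3a, a kinesin of cilia (0.46), Ofd1 (0.50), Bbs4 (−0.34) and Pmfbp1 of the sperm neck (0.30), with edgeR unadjusted p of 0.0529, 0.120, 0.251 and 0.195.

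What the 43 genes share apart from their names was looked at in their positions and start regions. They lie on 16 chromosomes, with 7 on chromosome 9 and 6 on chromosome 11. RefSeq start windows of 300 bases (250 before to 50 after the start, GRCm38.p6) were found for 34 of the 43. Their median G and C content was 62.3%, against 52.7% for the windows of 27025 genes, and the median number of CpG pairs was 25 against 7. The letters GTTGCC, part of the X-box that RFX factors of cilium genes are known to bind, were found on either strand in 8 of 34 windows (23.5%), against 14.1% of all genes. The 8 were Cntrl, Cep41, Cep57, Cep97, Cep112, Cep128, Cep164 and Cep19. A match is a description of letters and no measure of binding. In each of these comparisons the 27025 genes were not limited to the 13413 tested in these libraries. No set matched for level was compared, so the differences may not be particular to the 43 genes.

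**Figure D4:**
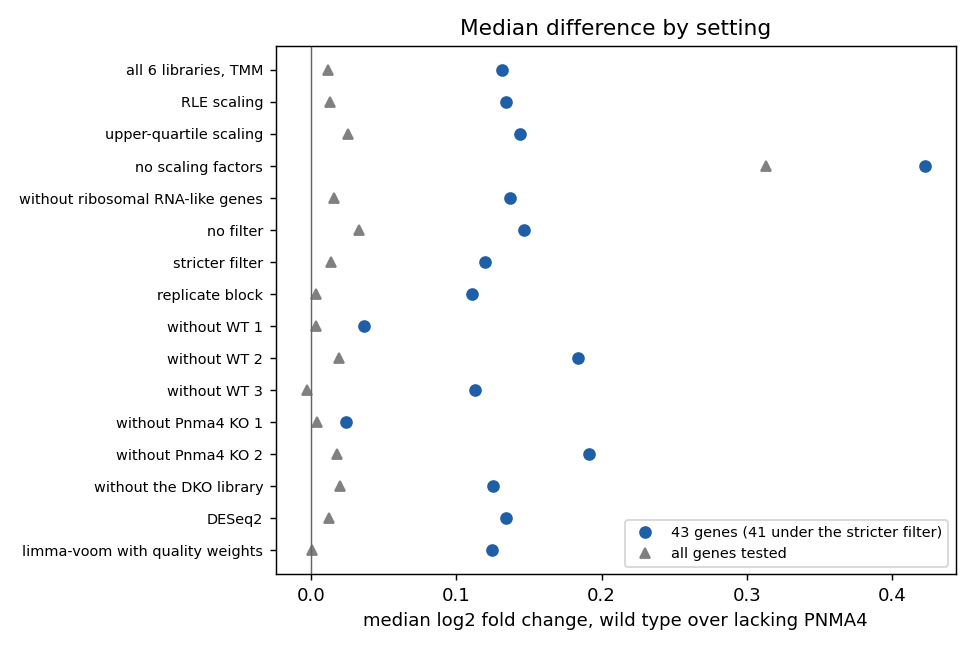
Median log2 fold change (wild type over lacking PNMA4) of the 43 genes (circles) and of all genes tested (triangles) under each setting. The circles run from 0.02 without Pnma4 KO 1 to 0.42 with no scaling factors, where the triangle moves to 0.31 as well.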

How the data were processed

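The authors deposited 1 table of raw counts per Ensembl gene ID, with a column for each library, and these were taken unchanged. The submitters' processing notes name bcl2fastq 2.20, STAR 2.5.2b, featureCounts, DESeq2 and the build GRCm38 without saying what each was used for. How strand and multi-mapping reads were handled, and which annotation was used, is not given in the sources used here.

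Counts of all genes were tested with edgeR 4.0.16 in R 4.3.3 (quasi-likelihood F test, filterByExpr with a minimum count of 10 and minimum total of 15, TMM, Benjamini-Hochberg at 0.05). Every fold change has wild type on top. CPM was computed on TMM-scaled totals, and log2 CPM with a prior count of 2. A 95% interval is the log2 fold change plus or minus the t quantile times its standard error. Libraries were grouped by their titles. No pair of libraries repeated each other, with a chi-square per gene of at least 8.60. The edgeR step was checked on simulated data. The 15 alternatives include DESeq2 1.42.0 and limma-voom (limma 3.58.1). Coordinates and start windows came from RefSeq (GRCm38.p6), where all 43 symbols matched. Members and lists were chosen with earlier results of these data known. Values in every library were given for the 8 genes with most reads, the 4 of lowest p per direction and in the knockout contrast, and paralog pairs. Other genes were named after their values were seen. Values of 1 of the 43 genes and of 1 listed gene are not reported here.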

Additional observations from a re-analysis of the deposited data

How the results depend on the processing

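In all 15 alternatives 0 of the 43 genes were called in either direction, and the lowest adjusted p of any named gene was 0.439. Genes called among all tested numbered 3 higher and 5 lower, against 11 and 20 with no filter, 2 and 0 with the stricter filter, 3 lower in limma-voom, and 2 to 6 higher and 5 to 14 lower with 1 library left out. Intervals within 2-fold held for 42 of 43 genes in the main test, for 6 with no scaling factors, and for 37 to 42 with 1 library left out. In DESeq2 they held for 41, with Cep152 and Nin outside. With the stricter filter they held for 40 of the 41 genes left, with Cep152 outside. The median of the 43 ran from 0.02 to 0.19 with 1 library left out. At an unadjusted p under 0.05 there were 0 of the 43 in the main test, against 391 of all 13413 genes. There were 2 without wild-type replicate 2, against 334 of all 13258 genes tested there. Without wild-type replicate 3 there were 4, against 1321 of 13310, and without Pnma4 KO 2 there were 2, against 675 of 13408. DKO over Pnma4 KO had 10 calls among all genes, 198 with no scaling factors and 10 to 35 with 1 library left out, and 0 among the 43 throughout.

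Of 358 values of 24 named genes, 329 kept their direction, and none of the 29 that did not was called. With no scaling factors the log2 fold changes were 0.27 for Cep126, 0.10 for Cep20, 0.17 for Cep55, 0.19 for Cep120, 0.18 for Cep43 and 0.15 for Cep97. That of Cep126 was 0.0051 with upper-quartile scaling and 0.0052 with no filter. With 1 library left out, Pcm1 ran from −0.035 to 0.29, Cep128 from −0.076 to 0.18, Cep126 from −0.15 to 0.13, Cep63 from −0.078 to 0.31, Cntrl from −0.072 to 0.36, Cep43 from −0.23 to 0.12, Cep97 from −0.29 to 0.048, Cep44 from −0.13 to 0.23, Ninl from −0.26 to 0.20, Cep85l from −0.045 to 0.15 and Cep295nl from −0.032 to 0.48. Beyond fewer libraries, the cause was not tested. The replicate block left 0 of 43 called, 3 higher and 4 lower of all genes, and moved Ninl to −0.011. Same-numbered libraries correlated at 0.04, −0.06 and 0.08 in their deviations from group means, and unlike-numbered ones at −0.19 to 0.19. With 3 libraries per group these values cannot decide whether the numbers mark shared handling.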

Other observations

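Genes with related names that the naming rule leaves out lay in the same range. Cep170b, the paralog of Cep170, stood at 81.5 ± 13.5 CPM in wild type, against 73.8 ± 4.16 CPM without PNMA4, and Cep57l1, the paralog of Cep57, at 15.3 ± 2.25 and 13.2 ± 0.694 CPM (SD, n = 3 each). Their log2 fold changes were 0.14 (95% interval −0.28 to 0.56) and 0.21 (−0.29 to 0.71). The antisense RNA Cep112os1 stood at 4.96, 9.65 and 12.0 CPM in wild type, against 8.82, 7.09 and 7.64 CPM without PNMA4.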
